A study of Mus musculus with 4 samples.

Results

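Of the 31054 gene rows counted in each library, 6 are described here. They were taken by gene symbol and not by any measured value: Cd38, Bst1, Nampt, Nt5e, Entpd1 and Sirt1, the surface enzymes that break down NAD and extracellular nucleotides together with the enzyme that rebuilds NAD and a sirtuin that uses it. Each symbol matched 1 row. Gene expression was measured in single cells of the stromal vascular fraction (all cells other than mature adipocytes) of gonadal adipose tissue. The study addressed progenitor cells with an active p16 gene in old fat and the signals they receive from other cells. All cells came from 18-month-old male p16-CreERT2/R26-LSL-tdTomato mice that had received tamoxifen, so that Cre driven by the p16 (Cdkn2a) promoter had switched on the red reporter tdTomato (Tom). The cells were sorted by CD45, a leukocyte surface protein, and by the reporter into 4 libraries, Tom+ (p16-high) and Tom- (p16-low) cells of the sort labelled CD45- and of the sort labelled CD45+. Where a class has a value in all of them, values are given in the order CD45- Tom+, then CD45- Tom-, then CD45+ Tom+, then CD45+ Tom-. Every group was 1 library, no library without Cre or tamoxifen is used here, and the number of mice behind a library is not given in the sources used here. There is therefore no replicate error and no p-value, and the 95% intervals cover counting error only. Tom or CD45 groups are compared between single libraries. Classes are mostly compared within a library or by their ranges over libraries.

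The libraries held 64083756 to 139397501 UMIs (unique molecular identifiers, each a captured transcript) in 3429 to 11255 barcodes, and 13878 cells were kept after filtering, 1927 to 4391 per library. The reporter differed by label: tdTomato was at 713 and 714 UMIs per 1000000 UMIs (CPM) in the Tom+ libraries and at 15.8 and 18.7 CPM in the Tom- libraries. The CD45 label did not separate leukocytes. Ptprc, the gene of CD45, was at 217 and 157 CPM in the libraries labelled CD45- and at 223 and 188 CPM in those labelled CD45+, and cells with leukocyte markers made up 68.1% and 36.8% of the former and 66.2% and 41.5% of the latter. Of the kept cells, 80 had a barcode that another library also kept. Before filtering the overlap was larger. The Tom- libraries, with 11255 and 11068 barcodes, shared 4394 of them, and the Tom+ libraries shared 26. CD45- Tom+ shared 887 with CD45- Tom- and 1134 with CD45+ Tom-, and CD45+ Tom+ shared 227 and 308 with them. The source of this overlap was not tested. Cells were grouped into clusters without using the 6 genes, and a class name ending in -like rests on marker transcripts only. A total of 23 clusters were named, giving 17 classes, and 8 clusters that mixed markers kept their numbers.

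NAD carries electrons in metabolism and is also consumed as a substrate. CD38 and its relative BST1 (CD157) are surface enzymes that cleave NAD and release nicotinamide, which NAMPT, the rate-limiting enzyme of the salvage pathway, turns back into NAD, while SIRT1 is a nuclear deacetylase that spends NAD. ENTPD1 (CD39) removes phosphates from extracellular ATP and ADP, and NT5E (CD73) converts the resulting AMP to adenosine, a signal that restrains immune cells; NT5E can also act on nicotinamide mononucleotide. In fat of old mice, CD38 of macrophages is known as a consumer of tissue NAD.

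Cd38 and Bst1 are neighbours in the mouse genome (build mm10, positions from GENCODE vM21). Bst1 lies at chr5:43818885-43843986 and Cd38 at chr5:43868553-43912375, both on the + strand, with 24566 bases and 0 annotated genes between them. Nt5e lies at chr9:88327197-88372092, Sirt1 at chr10:63319005-63381704 on the - strand, Nampt at chr12:32819545-32853349 and Entpd1 at chr19:40612366-40741602. Bst1 overlaps the protein-coding gene Fbxl5, which is on the other strand, and Nampt overlaps the long noncoding RNA Gdap10 on its own strand. Cd38 overlaps a sense-intronic and an antisense transcript, Sirt1 an antisense transcript, and Entpd1 a sense-intronic transcript and processed pseudogenes, while Nt5e overlaps no annotated gene. The strand setting of the counting is not given in the sources used here, so reads in those overlaps are uncertain.

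Upstream sequence is shown for Cd38, which myeloid, B lymphoid and endothelial classes carried, and for both annotated starts of Entpd1, the member with the highest level in neutrophil-like cells; the transcript ends counted here cannot tell which start was used. RefSeq promoter windows (GRCm38.p6) matched 5 of the 6 genes, and the stretches printed are the 250 bases before each start, 5′ to 3′ on the + strand. The RefSeq start of Cd38 lies downstream of the GENCODE start given above, so its stretch falls within the GENCODE gene, as does that of start 2 of Entpd1. Both strands were searched for GAGGAA, the core motif of the myeloid factor PU.1, and for TTGCNNAA, a C/EBP motif. Capitals mark GAGGAA or its reverse complement.
Cd38, chr5:43868559-43868808: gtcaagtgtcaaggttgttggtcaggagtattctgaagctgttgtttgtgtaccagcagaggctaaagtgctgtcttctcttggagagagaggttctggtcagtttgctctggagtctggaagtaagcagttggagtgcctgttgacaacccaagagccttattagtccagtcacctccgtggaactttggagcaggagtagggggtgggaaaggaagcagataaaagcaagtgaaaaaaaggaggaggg
Entpd1, start 1, chr19:40612116-40612365: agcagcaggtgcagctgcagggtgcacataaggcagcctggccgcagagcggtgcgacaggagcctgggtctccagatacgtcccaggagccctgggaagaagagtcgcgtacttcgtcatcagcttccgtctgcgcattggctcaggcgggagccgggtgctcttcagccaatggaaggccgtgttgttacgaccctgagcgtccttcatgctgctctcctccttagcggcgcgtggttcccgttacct
Entpd1, start 2, chr19:40659520-40659769: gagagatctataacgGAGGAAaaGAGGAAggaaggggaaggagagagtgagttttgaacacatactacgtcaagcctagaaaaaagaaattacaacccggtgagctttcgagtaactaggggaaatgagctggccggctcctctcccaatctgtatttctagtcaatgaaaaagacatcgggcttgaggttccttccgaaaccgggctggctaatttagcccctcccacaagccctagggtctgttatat
GAGGAA occurred 2 times before start 2 of Entpd1 and 0 times before its start 1 and before Cd38, and TTGCNNAA occurred 0 times in the 3 stretches. Among 32851 mouse windows of the same length, 23.3% held GAGGAA and 9.56% held TTGCNNAA. A match describes the letters and is not a measured binding site.

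**Figure D1:**
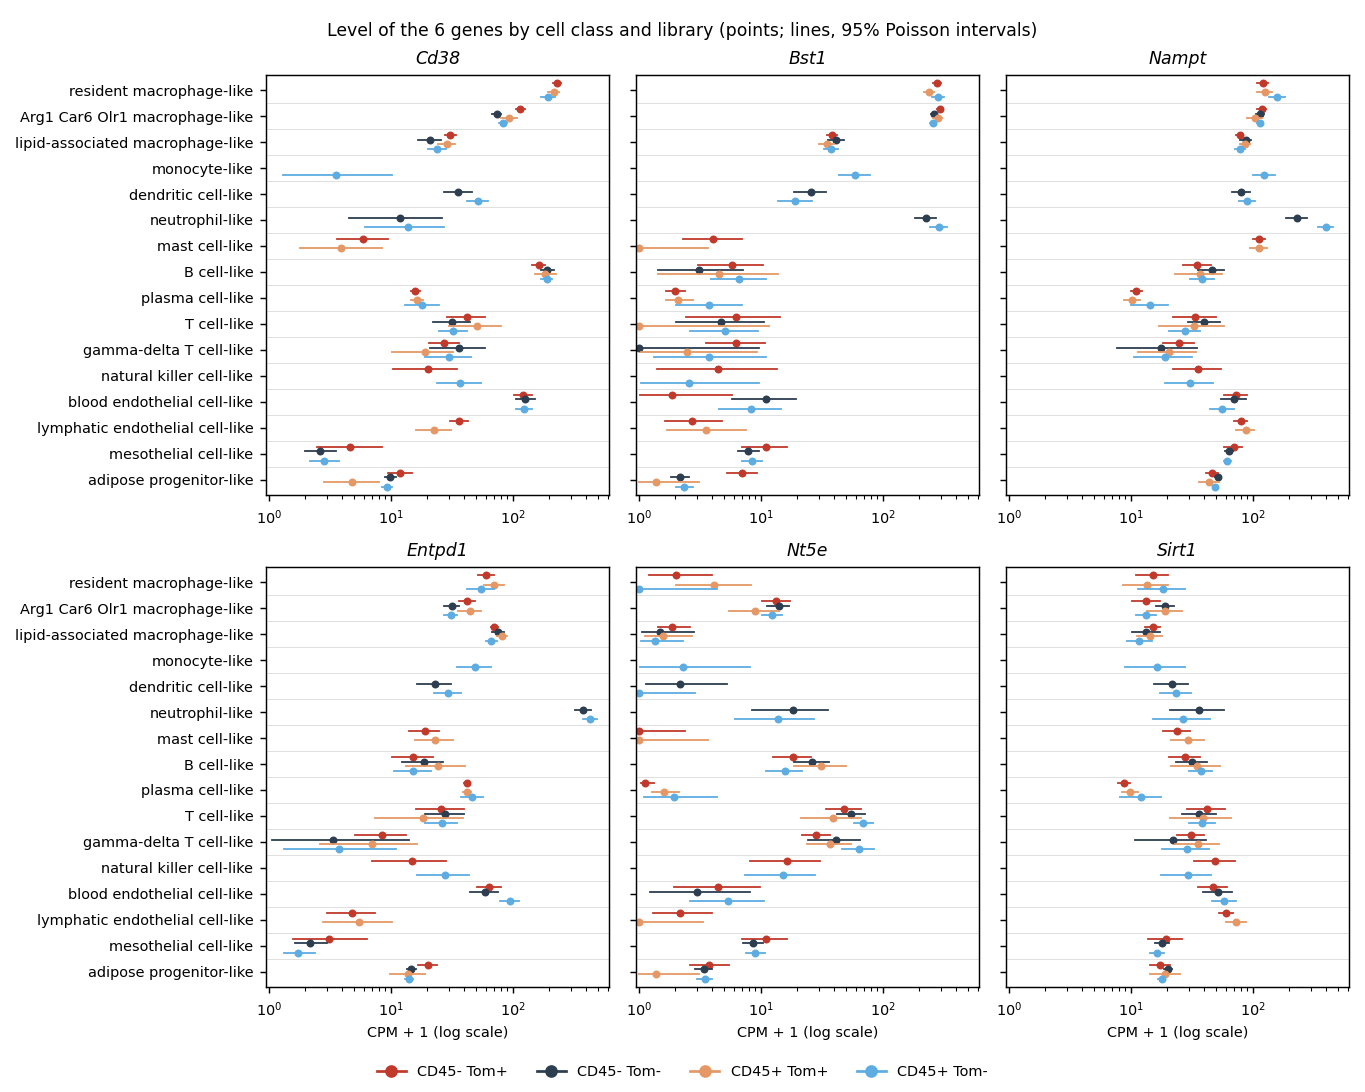
Level of each gene (CPM plus 1, log scale) in each class with at least 50 cells in a library; points are libraries by colour and lines are 95% Poisson intervals. Cd38 is high in resident macrophage-like, B cell-like and blood endothelial cell-like cells, Bst1 in 2 macrophage kinds and neutrophil-like cells, Entpd1 and Nampt in neutrophil-like cells, and Nt5e in T cell-like cells.

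Cd38 was carried by cells of unlike origin. Its level, in CPM of all UMIs of a class, was highest in resident macrophage-like cells. These carry Vsig4, Marco, Timd4 and other markers of tissue-resident macrophages, and Arg1 leads the genes of their cluster. They held 231, 216 and 195 CPM of Cd38 in CD45- Tom+, CD45+ Tom+ and CD45+ Tom-. B cell-like cells followed at 162, 192, 185 and 189 CPM. Blood endothelial-like cells, a non-leukocyte class, held 121, 126 and 124 CPM in the 3 libraries with at least 50 of them. These 3 ranges did not overlap one another or the range of the next class, Arg1 Car6 Olr1 macrophage-like cells, at 72.8 to 115 CPM. From dendritic cell-like cells (34.9 and 50.8 CPM) down to lipid-associated macrophage-like cells neighbouring ranges overlapped.

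The other end of the Cd38 scale was held by mesothelial cell-like, mast cell-like and monocyte-like cells. Mesothelial-like cells held 1.63 to 3.67 CPM, and a Cd38 UMI was seen in 9.59% of 73 cells in CD45- Tom+, 4.31% of 394 cells in CD45- Tom- and 5.37% of 410 cells in CD45+ Tom- at medians of 26554, 30057 and 30534 UMIs per cell, which is taken as the background share. In resident macrophage-like cells the share was 84.0%, 79.4% and 71.9% at medians of 16796, 12078 and 17367 UMIs. After every cell was thinned to 2000 UMIs the resident shares were 34.0%, 35.3% and 42.2%, against 1.39%, 0.254% and 0% in mesothelial cell-like cells. Monocyte-like cells, precursors of macrophages, reached 50 cells in CD45+ Tom- alone, where 2 of 60 cells had a Cd38 UMI, so that Cd38 in them was at the background share.

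Bst1 shared the macrophages with Cd38 but not the lymphoid or vascular cells. It was at 295, 262, 282 and 255 CPM in Arg1 Car6 Olr1 macrophage-like cells, at 278, 238 and 282 CPM in resident macrophage-like cells, and at 225 and 286 CPM in neutrophil-like cells of CD45- Tom- and CD45+ Tom-. These 3 ranges overlapped, and the next class, monocyte-like cells at 58.2 CPM in 1 library, was below all of them. B cell-like cells, where Cd38 was second highest, held 2.11 to 5.70 CPM of Bst1, from 2 to 12 UMIs per library. Neutrophil-like cells showed the reverse difference from B cell-like cells: Cd38 was at 10.9 and 12.9 CPM there, from 5 and 7 UMIs.

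**Figure D2:**
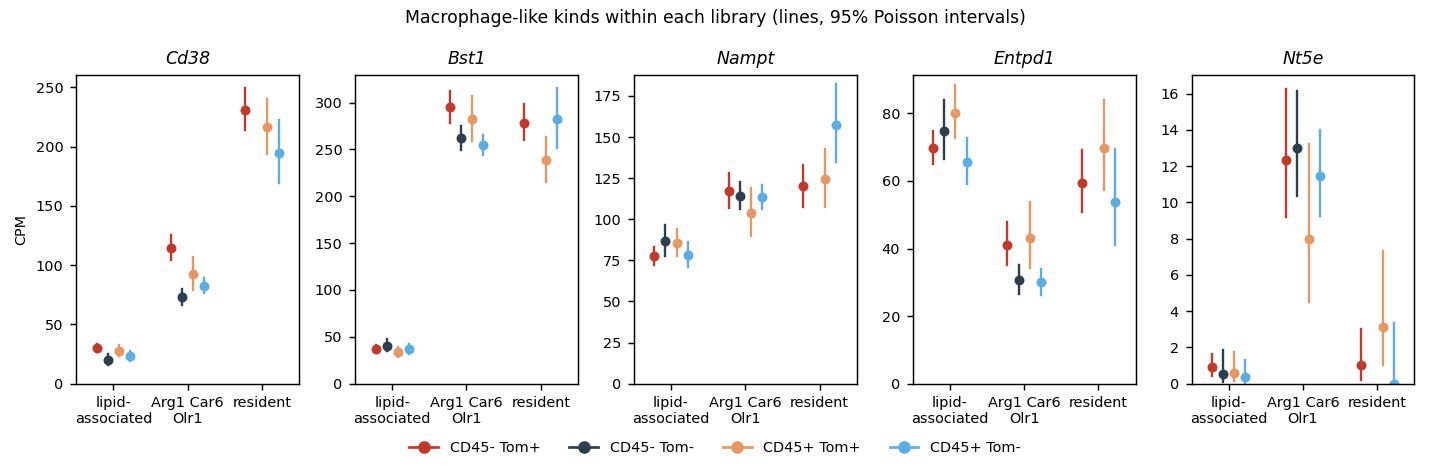
CPM of 5 of the genes in 3 macrophage-like kinds, on linear axes from 0; points are libraries and lines are 95% Poisson intervals. In every library shown, Cd38 and Bst1 are lowest in lipid-associated cells, Entpd1 is lowest in Arg1 Car6 Olr1 cells, and Nt5e reaches 8.01 to 13 CPM in Arg1 Car6 Olr1 cells only.

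The macrophage kinds differed in the same way within each library. Lipid-associated macrophage-like cells (960 cells, led by Gpnmb, with 6 of their 7 markers raised) held 29.7, 20.1, 27.7 and 23.1 CPM of Cd38. Resident cells were 7.77- to 8.44-fold above them in Cd38 in 3 of 3 libraries with both kinds, and Arg1 Car6 Olr1 cells 3.34- to 3.86-fold above them in 4 of 4, with intervals that left out equality each time. Between the higher kinds, Cd38 in resident cells was 2.02 to 2.36 times that in Arg1 Car6 Olr1 cells in 3 of 3 libraries. These higher kinds shared markers. Arg1, Car6 and Olr1 summed to 2421 to 4050 CPM in resident cells and to 5149 to 5821 CPM in Arg1 Car6 Olr1 cells. In lipid-associated cells they summed to 42.9 to 65.6 CPM. The 7 lipid-associated markers did not separate the kinds as widely. They summed to 10009 to 11769 CPM in lipid-associated cells, 7397 to 9750 CPM in Arg1 Car6 Olr1 cells and 3862 to 6772 CPM in resident cells. All 7 were raised in the Arg1 Car6 Olr1 cluster, and 1 of them, Spp1, was among its leading genes.

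For Bst1 those kinds were not told apart in the same way. Lipid-associated cells held 37.4, 40.6, 33.8 and 36.7 CPM, and resident and Arg1 Car6 Olr1 cells exceeded them 7.06- to 7.68-fold and 6.45- to 8.37-fold. Resident against Arg1 Car6 Olr1 cells gave ratios of 0.84 to 1.11, and only in CD45+ Tom+ did the interval leave out equality, on the lower side. Cd38 therefore ordered all 3 kinds, whereas Bst1 set lipid-associated cells apart from the other kinds.

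Entpd1 was ordered differently. It was at 69.9, 74.9, 80.3 and 65.6 CPM in lipid-associated cells, and Arg1 Car6 Olr1 cells held 0.41 to 0.59 times that level, below it in 4 of 4 libraries. In resident cells it was at 59.5, 69.6 and 53.9 CPM, with ratios to lipid-associated cells of 0.82 to 0.87 whose intervals included equality in all 3 libraries. Nt5e was the reverse: Arg1 Car6 Olr1 cells held 12.4, 13, 8.01 and 11.4 CPM, and lipid-associated cells 0.360 to 0.890 CPM from 2 to 10 UMIs per library. Resident cells held 1.03 and 3.14 CPM of Nt5e in CD45- Tom+ and CD45+ Tom+, from 3 and 5 UMIs, and no UMI in CD45+ Tom-, which allows up to 2.74 CPM at 3 counts. Nampt differed less between the kinds, with 1.21- to 1.51-fold more in Arg1 Car6 Olr1 cells and 1.45- to 2.01-fold more in resident cells than in lipid-associated cells, and Sirt1 was at 10.8 to 18.2 CPM in all 3 kinds.

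In single cells thinned to 2000 UMIs, the share with both Cd38 and Bst1 was set beside the product of their separate shares. The intervals cover the joint share alone, so a departure from the product was not tested. The joint share was above the product in Arg1 Car6 Olr1 cells of every library and in resident cells of CD45- Tom+. It was below the product in resident cells of CD45+ Tom+. In resident macrophage-like cells of CD45- Tom+, 30 of 162 cells (18.5%, interval 12.9 to 25.4) had a UMI of both genes, where the product of the separate shares was 14.04%. In CD45+ Tom+ it was 13 of 102 cells (12.7%, interval 6.96 to 20.8) against a product of 13.5%. Arg1 Car6 Olr1 cells had both in 6.6%, 5.23%, 6.67% and 7.42% of cells against products of 5.49%, 4.32%, 5.31% and 5.90%; each was above its product and each interval held it. Lipid-associated cells had both in 1, 1, 0 and 0 cells of 397, 162, 186 and 215, where the products gave 1.06, 0.593, 1.12 and 0.391 cells. For B cell-like cells the count was 0 in the 3 libraries with at least 100 cells, which allows up to 1.53%, 1.45% and 1.01% at 3 counts. The products gave 0.398, 0.246 and 1.05 cells there. Counts this small cannot show a departure from the product in either class.

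Nampt, the salvage enzyme, was found in every class with at least 50 cells. Neutrophil-like cells held the most, at 228 CPM in CD45- Tom- and 394 CPM in CD45+ Tom-, which is a wide spread between these 2 libraries (intervals 186 to 276 and 343 to 451). Resident macrophage-like cells held 120, 124 and 157 CPM, Arg1 Car6 Olr1 cells 104 to 117 CPM, and mast cell-like cells, the tissue cells that store histamine, 113 and 111 CPM in CD45- Tom+ and CD45+ Tom+. The mast cell-like level stood beside a Cd38 level of 4.96 and 2.94 CPM in the same cells. Lymphoid cells were low in Nampt: T cell-like cells held 26.9 to 39.3 CPM and gamma-delta T cell-like cells 16.6 to 23.9 CPM. Plasma cell-like cells held the least, at 9.29 to 13.5 CPM of all UMIs, a total that includes their immunoglobulin transcripts. Adipose progenitor-like cells, the fibroblast-like precursors of adipocytes, held 42.8 to 50.8 CPM and mesothelial cell-like cells 61.1 to 68.6 CPM.

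Co-detection of Cd38 and Nampt was set beside the product of the separate shares in the same way. Resident macrophage-like cells had both genes in 10 of 162 and 10 of 102 cells (6.17% and 9.80%), beside products of 6.50% and 8.30%. B cell-like cells had both in 1, 2 and 6 cells where the products gave 2.59, 4.68 and 6.85 cells.

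Among the named classes Entpd1 was highest in neutrophil-like cells by a wide margin, at 376 and 428 CPM in CD45- Tom- and CD45+ Tom-. No other named class with at least 50 cells in a library exceeded 93.2 CPM in any library. Cluster 25, which has no name, held 116 CPM in CD45+ Tom+. Blood endothelial-like cells, in whose surface ENTPD1 is known to limit platelet activation, held 63.3, 58.0 and 93.2 CPM in CD45- Tom+, CD45- Tom- and CD45+ Tom-. In lymphatic endothelial cell-like cells it was 3.78 and 4.46 CPM, and in CD45- Tom+, the single library with enough of both, blood endothelial cell-like cells were 16.7-fold higher. Cd38 also was higher in blood than in lymphatic endothelial cell-like cells, by 3.42-fold, whereas Sirt1 was not told apart (ratio 0.77, interval including equality). Mesothelial-like cells held 0.724 to 2.10 CPM of Entpd1.

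Nt5e was a low gene in this tissue and was highest in lymphocytes. T cell-like cells held 47.5, 54.2, 37.9 and 68.5 CPM and gamma-delta T cell-like cells 27.6, 40.3, 36.1 and 62.4 CPM; these ranges overlapped. B cell-like cells held 14.7 to 30.5 CPM. In natural killer cell-like cells it was 15.6 and 14.1 CPM, and T cell-like cells exceeded them 3.05- and 4.85-fold in the same libraries. Mast cell-like cells had 0 UMIs of Nt5e in CD45- Tom+ and CD45+ Tom+, which allows up to 1.15 and 2.20 CPM at 3 counts. Among stromal cells, mesothelial cell-like cells were 3.17- to 3.57-fold above adipose progenitor-like cells in 3 of 3 libraries, at 7.62 to 9.96 CPM.

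Within the T cell-like cells Nt5e followed the co-receptor transcripts; this split was chosen after the values were seen. Cells with a Cd4 UMI and no Cd8a UMI held 80.0 CPM over all 4 libraries (222 cells, interval 65.5 to 96.8) and cells with a Cd8a UMI and no Cd4 UMI held 41.4 CPM (207 cells, interval 32.4 to 52.2). The order was the same in the 3 libraries with at least 20 cells of each, at 87.6 against 23.7, 72.6 against 28.9 and 91.8 against 52.3 CPM. The 37 cells with a UMI of Foxp3, the factor of regulatory T cells, held 175 CPM (41 UMIs, interval 126 to 238), against 50.2 CPM in the 543 cells without one. This rested on CD45+ Tom-, with 30 of the 41 UMIs in 18 cells (297 CPM): without that library the cells with a Foxp3 UMI held 82.8 CPM (interval 41.3 to 148) and those without one 47.1 CPM. In CD45- Tom- the order was opposite, at 35.9 CPM from 3 UMIs in 12 cells with a Foxp3 UMI against 55.8 CPM. Entpd1 was at 25.7 CPM in the cells with a Foxp3 UMI, from 6 UMIs.

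Nt5e and Entpd1, the 2 steps from ATP to adenosine, were rarely found in the same cell. After thinning, no class and library had more than 2 cells with both, the largest count being 2 of 243 T cell-like cells in CD45+ Tom-. Their products were small as well, at most 1.43 cells in any class, so a difference from independence was not detectable at this depth. By class, lipid-associated and resident macrophage-like cells held much Entpd1 and little Nt5e, while neutrophil-like cells, highest in Entpd1, held 17.5 and 12.9 CPM of Nt5e. The correlation of their log2(CPM + 1) over 31 sums of 13 classes was -0.16; sums of 1 library share depth and free RNA.

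**Figure D3:**
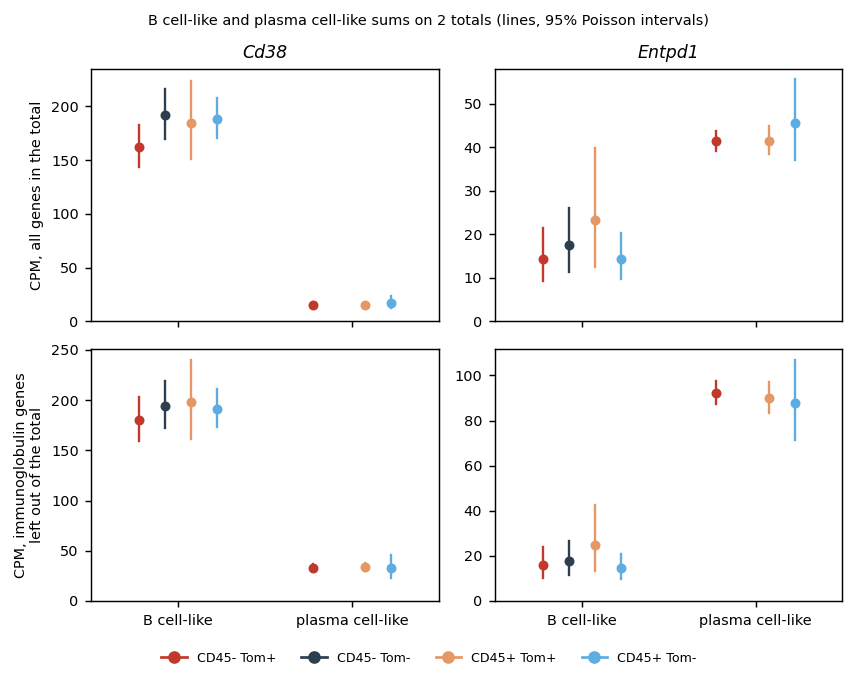
Cd38 and Entpd1 in B cell-like and plasma cell-like cells, in CPM of all UMIs (top) and with immunoglobulin genes left out of the total (bottom); points are libraries with at least 50 cells and lines are 95% Poisson intervals. On both totals Cd38 is higher in B cell-like cells and Entpd1 in plasma cell-like cells.

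Plasma cells, the antibody-secreting descendants of B cells, differed from B cell-like cells in opposite directions for Cd38 and Entpd1. Plasma cell-like cells held 14.9, 15.4 and 17.2 CPM of Cd38 in CD45- Tom+, CD45+ Tom+ and CD45+ Tom-, 10.9- to 12.0-fold below B cell-like cells of the same libraries. They held 41.4, 41.5 and 45.6 CPM of Entpd1, and B cell-like cells 0.31 to 0.56 times as much. Immunoglobulin transcripts made up 55.1%, 53.8% and 48.0% of the plasma cell-like UMIs, which lowers the CPM of every other gene. With these genes left out of the totals, Cd38 was still 5.42-, 5.93- and 5.78-fold higher in B cell-like cells (180 against 33.2, 198 against 33.4 and 191 against 33.1 CPM), and Entpd1 was 92.4, 89.8 and 87.7 CPM in plasma cell-like and 15.9, 25.0 and 14.5 CPM in B cell-like cells. Nt5e was also higher in B cell-like cells on that total, at 19.3 against 0.293, 32.7 against 1.34 and 14.9 against 1.79 CPM. Nearly all plasma cell-like cells, 1335 of 1343, had more Ighm than Igha or IgG heavy-chain UMIs.

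Sirt1 varied least. Lymphatic endothelial-like cells held 59.6 and 71.9 CPM, above blood endothelial cell-like cells at 46.0, 51.0 and 57.7 CPM with no overlap of the ranges, although the 1 library with both gave no separable ratio. Below these every neighbouring pair of ranges overlapped down to the eighth class, and T cell-like cells were at 35.5 to 40.9 CPM. Adipose progenitor-like cells held 16.4 to 19.1 CPM and plasma cell-like cells 7.85 to 11.2 CPM. Among progenitor clusters, cluster 14, led by the matrix genes Col1a1 and Col1a2, held 11.2 and 12.4 CPM of Sirt1 in CD45- Tom- and CD45+ Tom-, and cluster 0, led by Clec3b and Ogn, 28.7 and 21.4 CPM.

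Progenitor-like clusters also differed in Entpd1 and Nampt. Cluster 21, led by Fbn1, Clec3b and Pi16, held 52.5 and 47.1 CPM of Entpd1 in CD45- Tom- and CD45+ Tom- (intervals 42.0 to 64.7 and 38.3 to 57.4), while cluster 14 held 2.79 and 4.56 CPM (intervals 1.44 to 4.87 and 2.85 to 6.90). Nampt was at 47.0 and 41.4 CPM in cluster 21 and at 26.3 and 26.3 CPM in cluster 14. Cluster 0 held more Nampt, at 62.9 and 59.6 CPM. Clusters 4 (53.1 and 48.3 CPM) and 6 (39.3 and 39.9 CPM) lay near cluster 21. Cluster 25, which kept its number because it raised blood endothelial and mast cell markers together, held 116 CPM of Entpd1 and 59.1 CPM of Bst1 in CD45+ Tom+ from 55 cells.

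**Figure D4:**
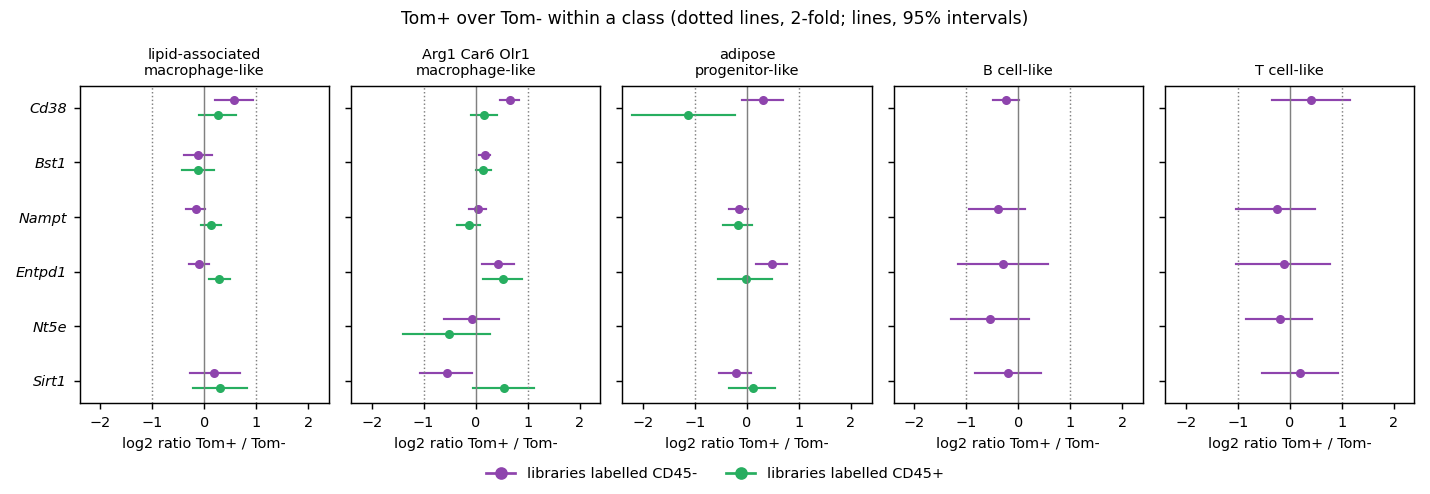
Log2 ratio of CPM, Tom+ over Tom-, for members that averaged 5 CPM or more over the pair; purple points are the pair labelled CD45-, green points the pair labelled CD45+, lines are 95% intervals and dotted lines mark 2-fold. Only Cd38 in adipose progenitor-like cells of the pair labelled CD45+ lies past a dotted line, at -1.13.

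The comparison of p16-high with p16-low cells was made within classes that had at least 100 cells in both libraries of a pair, and a gene was called at 2-fold or more if it averaged 5 CPM or more over the pair. In lipid-associated macrophage-like cells 0 of 5 members were called in either pair, where 1.56% of all genes were called in the pair labelled CD45- and 2.0% in the pair labelled CD45+. In Arg1 Car6 Olr1 macrophage-like cells 0 of 6 were called in either pair, with 1.85% and 3.05% of all genes called. In the pair labelled CD45-, 0 of 5 were called in B cell-like cells and 0 of 5 in T cell-like cells, where 7.93% and 11.4% of all genes were called. In adipose progenitor-like cells 0 of 4 were called in the pair labelled CD45- (1.69% of all genes) and 1 of 4 in the pair labelled CD45+ (1.59% of all genes).

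Differences under 2-fold were seen for Cd38, Entpd1 and Bst1 in macrophages. Bst1 in Arg1 Car6 Olr1 cells was at 295 against 262 CPM and at 282 against 255 CPM, a small difference whose intervals left out equality in both pairs (0.17, interval 0.06 to 0.28, and 0.15, interval 0.01 to 0.29). In lipid-associated macrophage-like cells Cd38 was at 29.7 CPM in Tom+ and 20.1 CPM in Tom- of the pair labelled CD45- (log2 ratio 0.57, interval 0.21 to 0.94) and at 27.7 and 23.1 CPM in the pair labelled CD45+ (0.26, interval -0.09 to 0.62). In Arg1 Car6 Olr1 cells it was at 115 and 72.8 CPM (0.66, interval 0.47 to 0.84) and at 92.4 and 82.5 CPM (0.16, interval -0.09 to 0.41). Both classes and both pairs had the higher Cd38 in Tom+, but in the pair labelled CD45+ the intervals included equality. Entpd1 in Arg1 Car6 Olr1 cells was at 41.2 against 30.6 CPM and at 43.2 against 30.0 CPM (0.43, interval 0.12 to 0.73, and 0.53, interval 0.15 to 0.90). In lipid-associated cells Entpd1 was at 69.9 against 74.9 CPM (-0.10, interval -0.29 to 0.10) and at 80.3 against 65.6 CPM (0.29, interval 0.08 to 0.50). Its sign therefore differed between the pairs there, and that difference was not tested. Sirt1 in Arg1 Car6 Olr1 cells likewise had log2 ratios of -0.56 (interval -1.06 to -0.07) and 0.55 (interval -0.06 to 1.12), from 12.4 against 18.2 CPM and 18.2 against 12.4 CPM.

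Other transcripts also differed between Tom+ and Tom- in these classes, not all in the same direction. The summed level of 7 resident macrophage markers in the Arg1 Car6 Olr1 cells was 466 and 215 CPM in Tom+ and Tom- of the pair labelled CD45- and 415 and 294 CPM in the pair labelled CD45+, with 0 of the 7 at 0 in all libraries. The 7 plasma cell markers summed to 2045 and 460 CPM and to 2057 and 435 CPM in the same cells, which held few transcripts of T cells (12.3 to 19.6 CPM over 7 markers). In lipid-associated cells the resident markers were at 388 against 359 and 376 against 411 CPM, the plasma cell markers at 1982 against 328 and 1850 against 283 CPM and the 7 mast cell markers at 130 against 22.8 and 54.2 against 16.0 CPM. The plasma cell difference was not particular to these classes. In B cell-like cells those markers were at 7153 against 774 and 4370 against 719 CPM. In T cell-like cells they were at 5182 against 1167 and 3641 against 480 CPM, and in mesothelial cell-like cells at 1735 against 400 and 1070 against 394 CPM. The part of these transcripts in the Cd38, Entpd1 and Bst1 differences was not tested. Libraries with the same reporter label gave a measure of how far 2 libraries differ in 1 class. Over members at 5 CPM or more, the median absolute log2 ratio of CD45+ to CD45- was 0.15 for Tom+ (27 values) and 0.16 for Tom- (34 values). The interval left out equality for 5 of the 27 values and for 5 of the 34. In that comparison Cd38 in Arg1 Car6 Olr1 cells differed by -0.31 between the Tom+ libraries (interval -0.57 to -0.06), 92.4 against 115 CPM, and 1 of the 27 values, Cd38 in progenitor-like cells, was past 2-fold.

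The called value in progenitor-like cells rested on few counts. Cd38 had 10 UMIs in 107 Tom+ cells of the pair labelled CD45+, 3.79 CPM against 8.30 CPM in Tom- (log2 ratio -1.13, interval -2.20 to -0.23), and in the pair labelled CD45- it was 11.0 against 8.91 CPM (0.30, interval -0.10 to 0.69). The Tom+ libraries differed from each other by -1.54 in this value (interval -2.66 to -0.57). The difference between the pairs was not tested, and the call was lost with each cell weighing the same, with thinned cells and with looser barcode filters. Nampt in these cells was at 45.7 against 50.8 CPM and at 42.8 against 48.4 CPM, with intervals that included equality.

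Bst1 in progenitor-like cells lay under the minimum level, yet its values stood apart in 1 library. It was at 6.08 CPM in CD45- Tom+ and at 1.19, 0.379 and 1.37 CPM in CD45- Tom-, CD45+ Tom+ and CD45+ Tom-. Of the 37 UMIs in CD45- Tom+, 17 were in 3 of the 268 cells. In that library the myeloid genes Lyz2 and C1qa were also higher in progenitor-like cells, at 275 and 70.8 CPM against 63.1 and 14.3 CPM in CD45- Tom-, the 8 macrophage markers summed to 277 CPM against 72.5 CPM, and 0 of the 8 were at 0 in all libraries. The part of macrophage transcripts in this value was not tested.

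The genes around the 6 members gave 0 calls that held in both pairs. The lists were NAD synthesis (19 genes), nicotinamide clearance (3), intracellular NAD consumers (22), other ectoenzymes of NAD and nucleotides (15 found of 16) and purine receptors and transporters (22). In lipid-associated macrophage-like cells 5, 0, 17, 2 and 10 of them passed the minimum in both pairs, in Arg1 Car6 Olr1 cells 4, 0, 16, 2 and 11, and in progenitor-like cells 7, 3, 19, 7 and 9. Among all genes that passed in both pairs, those higher in Tom+ at 2-fold or more made up 0.498%, 0.502% and 0.589% in the 3 classes and those lower 0.394%, 0.479% and 0.0413%. The median log2 ratio of the intracellular consumers in progenitor-like cells was -0.13 and -0.21 in the pairs labelled CD45- and CD45+, where the median of all genes was -0.03 in both.

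The 3 most abundant genes of each list lay mostly under 2-fold in these classes. Nadk, the kinase that makes NADP from NAD, was at 145 against 176 CPM and at 141 against 173 CPM (Tom+ against Tom-) in Arg1 Car6 Olr1 cells (-0.28 and -0.29), and Slc25a51, the mitochondrial NAD carrier, at 62.5 against 52.5 and 49.7 against 59.1 CPM (0.25 and -0.25). Nadk2, its mitochondrial counterpart, was at 9.36 against 12.1 and 14.8 against 11.2 CPM in progenitor-like cells, and in Arg1 Car6 Olr1 cells it was level in the pair labelled CD45- (9.93 against 10.3 CPM, -0.06) and lower in Tom+ past 2-fold in the pair labelled CD45+ (5.87 against 12.0 CPM, -1.04). Nnmt, which methylates nicotinamide and so removes it from salvage, was at 90.7 against 90.6 and 118 against 99.5 CPM in progenitor-like cells, and the aldehyde oxidases Aox3 and Aox1, which can oxidise the methylated product, were at 24.5 against 33.2 and 33.7 against 33.4, and at 15.1 against 16.6 and 15.2 against 16.4 CPM. Tiparp, a mono-ADP-ribosyltransferase, was at 98.3 against 73.9 and 121 against 78.5 CPM in lipid-associated cells (0.41 and 0.62), while Sirt2 (108 against 117 and 105 against 111 CPM) and Tnks2 (51.6 against 53.3 and 61.2 against 56.4 CPM) were closer there.

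Among the other ectoenzymes, Entpd2 in progenitor-like cells was at 309 against 356 and 289 against 363 CPM, and Enpp2, which was higher in mesothelial cell-like cells (325 to 542 CPM), was at 131 against 118 and 132 against 123 CPM. Enpp1, which releases AMP from nucleotides, was higher in Tom+ in both pairs but under 2-fold in Arg1 Car6 Olr1 cells (24.0 against 12.7 and 21.9 against 16.3 CPM, 0.92 and 0.43) and in progenitor-like cells (15.1 against 11.5 and 19.3 against 9.72 CPM, 0.40 and 0.99). Plasma cell-like cells held the most Enpp1 (66.5 to 72.9 CPM). The 7 plasma cell markers were higher in Tom+ in both of these classes, as in others, and in progenitor-like cells were at 2050 against 388 and 2340 against 373 CPM. The part of plasma cell transcripts in the Enpp1 values was not tested. Of the receptors and transporters, P2rx4 was at 259 against 269 and 284 against 283 CPM, P2ry6 at 141 against 150 and 141 against 138 CPM and the nucleoside transporter Slc29a1 at 73.7 against 79.4 and 79.7 against 76.2 CPM in lipid-associated cells.

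Genes whose level followed a member most closely were ranked by Pearson's r of log2(CPM + 1) over 31 class-by-library sums from 13 classes, among 10230 genes. The sums share libraries and depth, so r describes these sums only. Bst1 was followed most closely by the myeloid surface genes Cd14 (r = 0.97), Tlr2 (0.95) and Itgam (0.95). For Nampt the genes were Sat1 (0.96), Rab7 (0.96) and Snap23 (0.93), and for Sirt1 Cdkn2aip (0.92), 2810403A07Rik (0.92) and Elk4 (0.92). Cd38 had no gene as close, with Cyth1 at 0.86, Slc28a2 at 0.85 and Fam117b at 0.85, and the same was true of Nt5e (Zdhhc18 0.88, Ly75 0.84 and Cyld 0.84) and Entpd1 (Tlr6 0.77, Themis2 0.76 and Csf3r 0.73). Between members the highest r was that of Bst1 with Nampt (0.67), and the genomic neighbours Cd38 and Bst1 had r = 0.48.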

How the data were processed

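Cells of gonadal adipose tissue were profiled in 4 libraries with 10x Genomics Chromium 3′ chemistry. Per the labels, the authors used Cell Ranger 3.0.2 and mm10, and the deposited matrices hold whole-number counts of UMIs per gene and barcode, with no normalization. Following the study's methods, a barcode was kept if it had more than 1000 but fewer than 7000 genes and a mitochondrial share below 8%. The highest Scrublet scores, 0.8% of cells for each 1000 barcodes, were left out as doublets (259, 364, 54 and 427 cells). Clustering used scanpy 1.11.5 with 2000 variable genes, 30 principal components, 15 neighbours and Leiden resolution 1, without the members, the list genes and tdTomato. Clusters were named from fixed markers by thresholds set after the data were seen. Dpp4 is both a marker and a list gene.

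CPM was computed from UMIs summed over a class and library, with exact Poisson 95% intervals; shares of cells have exact Clopper-Pearson intervals and ratios the conditional exact interval for Poisson counts. PCR duplicates are collapsed by UMI, and intervals cover counting error only. For thinning to 2000 UMIs, 13, 21, 0 and 26 shallower cells were left out. The study's test over cells was not used because cells of 1 library are not replicates. The ratio and its interval were run on simulated Poisson counts. That is the model the interval assumes, so the run checked the computation and not variation between cells or libraries. Named beyond the members were the 3 most abundant genes of each list and the 3 genes most like each member; clusters, Fbxl5, Gdap10, subsets of T cells and plasma cells, and myeloid genes in progenitor-like cells were chosen after their values were seen. The members and lists were chosen with earlier results of these data known.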

Additional observations from a re-analysis of the deposited data

How the results depend on the processing

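Of the values recomputed, 634 stayed within the interval, range or 1.5-fold limit set for them and 65 did not, and no called value turned its direction. The call of Cd38 in adipose progenitor-like cells of the pair labelled CD45+ gave a count of 0 with looser barcodes (500 genes, 20% mitochondrial UMIs), with each cell weighing the same and with cells thinned to 2000 UMIs; with no minimum level the count was 3 there, 1 in the pair labelled CD45- and 1 in B cell-like cells. In Arg1 Car6 Olr1 cells of the pair labelled CD45+ the count went from 0 to 1 with looser barcodes and at Leiden resolution 2, and to 2 with thinned cells. In lipid-associated cells it went to 1 with 4000 variable genes (pair labelled CD45+) and with thinned cells (both pairs). Arg1 Car6 Olr1 cells ranked 2 for Bst1 at resolution 2, with each cell weighing the same and with thinned cells, behind neutrophil-like or resident cells, and resident cells ranked 2 for Cd38 at resolution 2, behind B cell-like cells. The cause of these changes was not tested. No Arg1 Car6 Olr1 class was named with 4000 variable genes, and no resident class at resolution 0.5 or with looser barcodes, so those values were not run; scaling by median of ratios and dropping the minimum level do not apply to levels. Leaving out a replicate was not possible with 1 library per group. No paired analysis was possible because each group is a single library. Genes at 1 to 10 UMIs in a class limit what these depths can show.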

Other observations

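Several purine genes of the lists were highest in mast cell-like cells, a class that no member led; the genes here were chosen after their values were seen. Mast cell-like cells held the adenosine receptor gene Adora3 at 379 and 404 CPM in CD45- Tom+ and CD45+ Tom+, the ATP-gated channel gene P2rx7 at 141 and 146 CPM, the nucleoside transporter gene Slc29a1 at 420 and 445 CPM and adenosine kinase, Adk, at 358 and 359 CPM. The class next in Adora3 was at a mean of 2.79 CPM, and that next in P2rx7, resident macrophage-like cells, at 48.2 CPM. Adora2a, the receptor through which adenosine restrains lymphocytes, was at 86.5 and 138 CPM in natural killer cell-like cells and at 81.6 to 125 CPM in blood endothelial cell-like cells, ranges that overlapped.

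Other enzymes of NAD and nucleotides had leading classes of their own. Adipose progenitor-like cells, with 0.379 to 2.79 CPM of Nt5e, held 289 to 363 CPM of Entpd2, which also hydrolyses ATP, and no other class had a mean above 34.6 CPM. Gamma-delta T cell-like cells held 65.2 to 111 CPM of Acpp, a phosphatase that can release adenosine from AMP, and plasma cell-like cells 66.5 to 72.9 CPM of Enpp1. Art3, of the ecto-ADP-ribosyltransferase family, was at 37.0 to 99.8 CPM in blood endothelial cell-like cells, and mesothelial cell-like cells held 167 to 207 CPM of Nnmt.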
